A study of Mus musculus with 4 samples.

Results

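The renal stroma regulators examined here are 9 mouse genes, namely *Foxd1*, *Tbx18*, *Meis1*, *Meis2*, *Pdgfra*, *Pdgfrb*, *Ntn1*, *Fat4* and *Dchs1*. These genes mark the stroma of the developing kidney, act in it or, as *Dchs1*, encode a binding partner of its proteins. They were taken by gene symbol from the 52636 genes for which reads were counted in each library, and all 9 were found and passed the filter on low counts. The libraries were made from FACS-sorted tdTomato+ cells of kidneys of E12.5–E12.75 embryos of a mixed background that includes C57BL/6J, harvested 48 h after tamoxifen was first given. Control embryos were *Eya1*CreER;tdTomato, and *Eya1*cKO embryos were *Eya1*CreER;*Eya1*fl/fl;tdTomato, so that both genotypes carried the tamoxifen-inducible *Eya1*CreER allele and the reporter and differed in the floxed *Eya1* alleles. Each genotype has 2 libraries, each from its own 5000 cells. Suspensions were combined before sorting and the 2 libraries of a genotype were sorted at the same time. The spread between them, on which every SE, interval and *P* value below rests, may be technical and does not measure variation between embryos. The tdTomato label marks cells in which CreER driven by the *Eya1* locus had been active, and it does not separate stroma from other cells in which this happened.

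The renal stroma is the mesenchyme that surrounds the nephron progenitors (NPCs) and the branching ureteric bud and gives rise to interstitial fibroblasts, pericytes and mesangial cells. Foxd1, a forkhead transcription factor, marks its cortical progenitors, and Tbx18, a T-box factor, marks the mesenchyme that will surround the ureter. Stromal cells signal to NPCs through cell surface proteins such as the giant protocadherin Fat4, which binds the protocadherin Dchs1, and respond to platelet-derived growth factors (PDGFs) through the receptors Pdgfra and Pdgfrb.

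*Foxd1* and *Tbx18* are the regional markers among the 9 genes and changed in opposite directions, as described below, so the 250 bases before their transcription start sites are shown. Both sequences are from the RefSeq promoter table for GRCm38.p6 and are written in the direction of the gene. The *Foxd1* sequence lies at chr13:98353995-98354244 on the plus strand and the *Tbx18* sequence at chr9:87731261-87731510 on the minus strand. Capitals mark matches, on either strand, to the hexamer TGACAG that Meis homeodomain proteins bind, to the CCAAT box, to the TATA box searched as TATAAA or to the GC box searched as GGGCGG.

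Foxd1: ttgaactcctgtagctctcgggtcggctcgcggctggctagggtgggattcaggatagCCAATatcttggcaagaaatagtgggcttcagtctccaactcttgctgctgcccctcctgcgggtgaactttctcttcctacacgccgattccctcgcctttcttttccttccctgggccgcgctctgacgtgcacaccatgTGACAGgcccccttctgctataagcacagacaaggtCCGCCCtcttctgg

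Tbx18: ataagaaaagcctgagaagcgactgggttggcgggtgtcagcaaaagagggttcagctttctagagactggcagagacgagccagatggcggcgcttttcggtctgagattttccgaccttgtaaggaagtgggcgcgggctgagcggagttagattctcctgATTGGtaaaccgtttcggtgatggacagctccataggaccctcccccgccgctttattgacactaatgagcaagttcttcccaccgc

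The *Foxd1* sequence holds a CCAAT box, the hexamer TGACAG and the reverse complement of the GC box, whose first bases lie 192, 50 and 14 bases before the start. The *Tbx18* sequence holds 1 match, the reverse complement of the CCAAT box, which begins 87 bases before the start. Of 32851 RefSeq promoter windows of the same length, 33.9% hold the CCAAT box, 15.9% the Meis hexamer, 12.4% the TATA box and 32.7% the GC box on either strand. A match is a description of the letters and does not show that a factor binds. The table held promoters of 6 of the 9 genes.

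*Eya1* itself, the targeted gene, was counted in the controls at 6612 and 6420 reads and in *Eya1*cKO 1 and 2 at 377 and 219, with a log2 fold change of -3.60 ± 0.18 (SE). From 17457452 to 37999342 reads were counted on genes in a library, fewer in both *Eya1*cKO libraries than in either control, and reads on no gene made up 13.9% and 12.9% of those recorded in the controls and 22.7% and 20.9% in *Eya1*cKO. Among marker genes of other cell types, counts scaled to an equal library total (CPM) summed over 8 NPC markers were 903 and 885 in the controls and 126 and 86.0 in *Eya1*cKO, and 7 of the 8 fell. The NPC list includes *Eya1* itself. All 6 podocyte markers (504 and 514 against 2353 and 2348 CPM in sum), all 8 endothelial markers (661 and 667 against 1128 and 1191), all 6 adrenal cortex markers (18.6 and 11.4 against 675 and 652) and all 6 sympathoadrenal markers (4.60 and 8.37 against 505 and 533) rose. Of 8 ureteric bud markers 2 fell in edgeR and 3 in DESeq2's test, 5 were lower at an unadjusted *P* under 0.05 in edgeR and the median log2 fold change was -1.04, and of the 4 Schwann and neural crest markers tested 1 rose. None of 8 macrophage markers passed in edgeR's or DESeq2's test (2 had an unadjusted *P* under 0.05 in edgeR), and the erythroid markers were too low to test, with *Hba-a1*, *Hba-a2* and *Hbb-bs* at 0 reads in every library.

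The comparison asks how the stroma regulators responded to loss of Eya1 in *Eya1*-lineage cells. They did not move together. *Pdgfrb* and *Foxd1* rose in *Eya1*cKO, by 1.88-fold and 1.42-fold, whereas *Tbx18*, *Dchs1* and *Meis2* fell, by 2.32-fold, 1.58-fold and 1.47-fold. *Meis1* was at 178 CPM in both genotypes, and *Pdgfra*, *Ntn1* and *Fat4* did not pass the threshold. The test was edgeR's quasi-likelihood test of the genotype, its *P* values adjusted by Benjamini-Hochberg across the 19041 genes kept by the low-count filter, at a threshold of 0.05. Over all of these genes 4.41% were called lower and 5.15% higher, against 3 and 2 of the 9 stroma regulators. These 9 were chosen with earlier results of these data known, so the shares are set side by side as a description. The genotypes did not overlap in 8 of the 9 genes, *Eya1*cKO being the lower in 5 and the higher in 3, against 30.0% and 25.3% of all genes tested. The median log2 fold change was -0.27 over the 9 genes and 0.02 over all genes tested. Because the cells were measured in bulk, fewer cells of a type and less RNA per cell cannot be told apart, and the part that the podocyte, endothelial, adrenal and sympathoadrenal markers, the depth and the reads on no gene have in these differences was not tested.

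**Figure D1:**
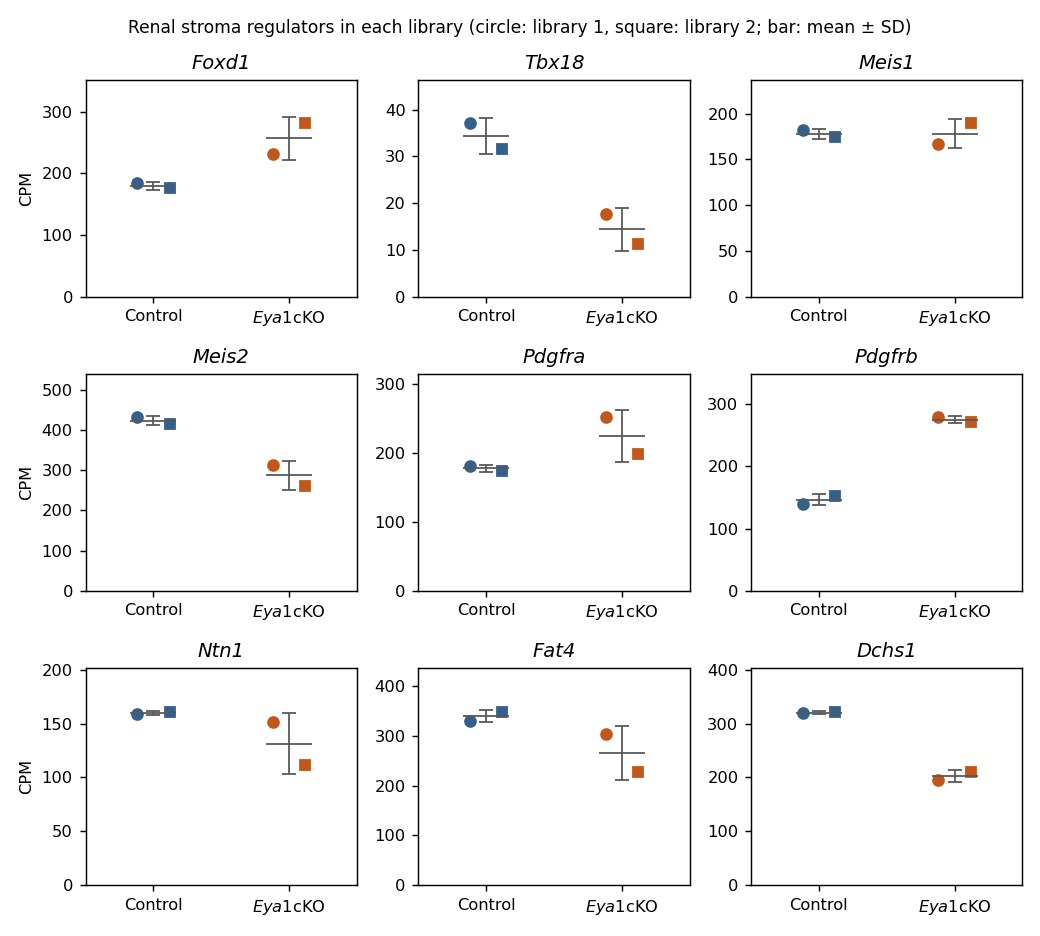
Level of each renal stroma regulator in counts scaled to an equal library total (CPM, linear axis from 0 in each panel) in the 2 control and 2 *Eya1*cKO libraries. Points are libraries (circle 1, square 2), and the bar is the mean ± SD. The libraries of the genotypes overlap only for *Meis1*, which lies between 167 and 190 CPM in all 4.

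*Foxd1* is a gene on chromosome 13 (98354242 to 98359305, GRCm38 as for the genes below) and had 184 and 175 CPM in control 1 and 2 and 231 and 281 CPM in *Eya1*cKO 1 and 2. The *Eya1*cKO libraries were the higher ones, and they differed from each other more than the controls did. The log2 fold change was 0.51 ± 0.11 (SE, adjusted *P* = 0.037 in edgeR), with a 95% interval from 0.24 to 0.77. The call was lost when no low-count filter was used (adjusted *P* = 0.082) or with edgeR's legacy method (0.068), and also when control 1 (0.53) or control 2 (0.62) was left out. The level of *Foxd1* per kilobase of exon was higher than in the other 8 genes in both genotypes, although in each genotype its libraries overlapped those of the next gene.

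*Tbx18*, on chromosome 9 from 87702800 to 87731260, was the least abundant of the 9 genes per kilobase. The controls had 1300 and 1187 reads and the *Eya1*cKO libraries 401 and 196, which was 37.2 and 31.6 CPM against 17.7 and 11.2 CPM. The highest *Eya1*cKO library thus lay below the lowest control. The log2 fold change of -1.21 ± 0.29 (SE, adjusted *P* = 0.047 in edgeR) was the largest fall of the 9 and the least certain of the 5 calls, with a 95% interval from -1.90 to -0.53. The call was lost with library totals alone (adjusted *P* = 0.053), without the low-count filter (0.086), with the legacy method (0.082), and without control 1 (0.60) or control 2 (0.52). Exons of the gene *D030062O11Rik* on the opposite strand cover 20.6% of the exonic length of *Tbx18*, and since the strand setting of the counting is not given in the sources used here, reads there are uncertain. *D030062O11Rik* was itself counted at 28 and 29 reads in the controls and 0 and 20 in *Eya1*cKO.

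*Meis1* and *Meis2* encode homeodomain proteins of the TALE class, which act with Pbx and Hox proteins and are widely used as markers of renal stroma. *Meis2*, on chromosome 2 from 115863064 to 116065839, had 432 and 416 CPM in control 1 and 2 and 313 and 262 CPM in *Eya1*cKO 1 and 2. Both *Eya1*cKO libraries were clear of the controls on the low side, with a log2 fold change of -0.55 ± 0.10 (SE, adjusted *P* = 0.017 in edgeR, 95% interval from -0.78 to -0.33). This call was lost only when control 1 (adjusted *P* = 0.39) or control 2 (0.35) was left out, among the alternatives run.

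For *Meis1*, on chromosome 11 from 18879817 to 19018985, the levels were 182 and 174 CPM in the controls against 167 and 190 in *Eya1*cKO, so that the control libraries lay between the *Eya1*cKO libraries. The log2 fold change was -0.0026 ± 0.10 (SE, adjusted *P* = 0.99 in edgeR), and its 95% interval, from -0.24 to 0.24, holds no change as large as that of *Meis2*. Exons of other genes cover 8.51% of its exonic length on the opposite strand and 9.77% on the same strand.

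*Pdgfrb*, on chromosome 18 from 61045150 to 61085061, encodes a receptor for PDGF-B and PDGF-D that mesangial cells and pericytes use. Its levels were 140 and 153 CPM in control 1 and 2 and 279 and 271 CPM in *Eya1*cKO 1 and 2. The libraries within each genotype were close together and the genotypes far apart, with a log2 fold change of 0.91 ± 0.09 (SE, adjusted *P* = 0.0027 in edgeR, 95% interval from 0.69 to 1.12), the most certain of the 9. It remained between 0.82 and 0.96 with each library left out in turn, but did not pass without control 1 (adjusted *P* = 0.21) or control 2 (0.18). Per kilobase of exon it went from the fourth place among the 9 genes in the controls, at 26.8 ± 1.66 CPM per kb (SD, n = 2), to the second in *Eya1*cKO, at 50.2 ± 1.05.

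*Pdgfra*, on chromosome 5 from 75152292 to 75198215, encodes a receptor for PDGFs that include PDGF-A and PDGF-C and is found on many mesenchymal cells. It had 182 and 174 CPM in the controls against 252 and 199 in *Eya1*cKO, and both *Eya1*cKO libraries were above the controls, one of them far more than the other. The log2 fold change of 0.35 ± 0.12 (SE, 95% interval from 0.06 to 0.64) did not pass over all genes (adjusted *P* = 0.12 in edgeR). It was 0.15 without *Eya1*cKO 1 (adjusted *P* = 0.17), and 0.49 without *Eya1*cKO 2 (adjusted *P* = 6.2e-05).

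*Fat4* and *Dchs1* encode protocadherins that bind each other between neighbouring cells. *Dchs1*, on chromosome 7 from 105752990 to 105787654, had 319 and 322 CPM in control 1 and 2 and 195 and 211 CPM in *Eya1*cKO 1 and 2. Each pair was tight and the pairs did not overlap, with a log2 fold change of -0.66 ± 0.08 (SE, adjusted *P* = 0.0059 in edgeR, 95% interval from -0.86 to -0.47). It kept its direction and lay between -0.73 and -0.62 with each library left out, although the adjusted *P* was 0.26 without control 1 and 0.30 without control 2.

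*Fat4*, on chromosome 3 from 38886940 to 39011985, had 331 and 349 CPM in the controls against 304 and 228 in *Eya1*cKO. Both *Eya1*cKO libraries were below the controls, *Eya1*cKO 1 only by a little. The log2 fold change of -0.35 ± 0.13 (SE, adjusted *P* = 0.14 in edgeR, 95% interval from -0.65 to -0.04) did not pass. It was -0.59 without *Eya1*cKO 1 (adjusted *P* = 1.75e-06) and -0.18 without *Eya1*cKO 2 (adjusted *P* = 0.035), both times with the spread taken from a group of 2 libraries, the controls. Opposite-strand exons cover 8.68% of the exonic length of *Fat4* and 5.86% of that of *Dchs1*.

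*Ntn1*, on chromosome 11 from 68209364 to 68400823, encodes the secreted guidance cue netrin-1, which stromal cells make. It had 159 and 161 CPM in the controls against 152 and 111 in *Eya1*cKO. *Eya1*cKO 1 was just below the controls and *Eya1*cKO 2 well below them, and the log2 fold change of -0.27 ± 0.15 (SE, adjusted *P* = 0.27 in edgeR, 95% interval from -0.61 to 0.08) did not pass. It was -0.54 without *Eya1*cKO 1 (adjusted *P* = 1.7e-04) and -0.09 without *Eya1*cKO 2 (adjusted *P* = 0.39).

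**Figure D2:**
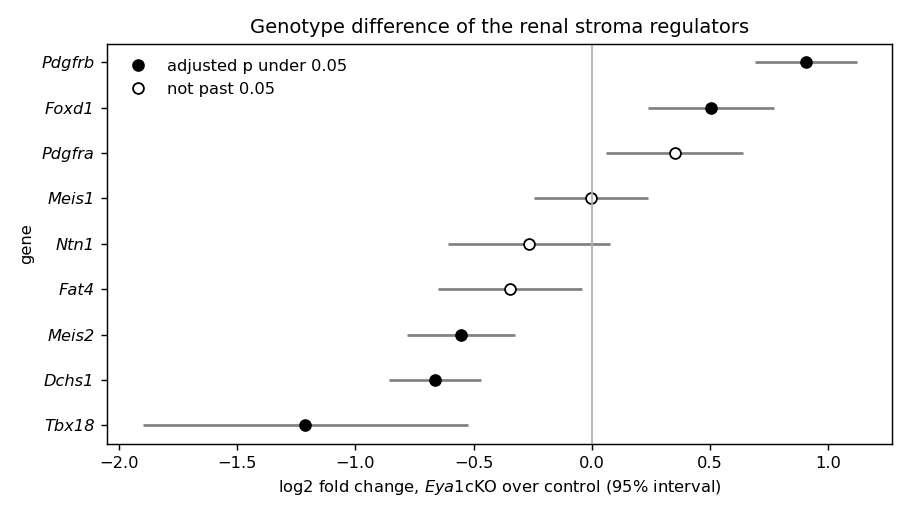
Log2 fold change of each gene, *Eya1*cKO over control, with its 95% interval from edgeR's fit. Filled points had an adjusted *P* under 0.05. The called genes run from *Tbx18* at -1.21 to *Pdgfrb* at 0.91, and *Meis1* sits at 0.

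In the controls, the order of the levels per kilobase of exon was *Foxd1*, *Meis2*, *Dchs1*, *Pdgfrb*, *Ntn1*, *Fat4*, *Pdgfra*, *Meis1* and *Tbx18*, from 35.5 ± 1.24 to 7.29 ± 0.827 CPM per kb (SD, n = 2). Neighbours overlapped only for *Foxd1* with *Meis2* and for *Pdgfrb* with *Ntn1*. In *Eya1*cKO the order was *Foxd1*, *Pdgfrb*, *Meis2*, *Pdgfra*, *Ntn1*, *Dchs1*, *Meis1*, *Fat4* and *Tbx18*, from 50.6 ± 6.96 to 3.06 ± 0.984 CPM per kb. There *Foxd1* and *Pdgfrb*, which overlapped, stood clear of the rest, *Tbx18* stood clear below, and the libraries of the 6 genes between overlapped those of their neighbours. Among all genes tested, the level of *Foxd1* per kilobase was at the 93.0th percentile in the controls and the 96.0th in *Eya1*cKO, and that of *Tbx18* at the 64.4th and the 44.5th. Levels per kilobase used exonic lengths of a later annotation release than the counts, on the same genome build.

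The ratio of related genes within a library does not depend on how libraries are scaled. The ratio of *Meis1* to *Meis2* in reads per exonic kilobase was 0.481 and 0.478 in the controls and 0.609 and 0.828 in *Eya1*cKO, with means of 0.480 and 0.718 and no overlap between the genotypes. The ratio of *Pdgfra* to *Pdgfrb* was 0.708 and 0.623 in the controls and 0.494 and 0.401 in *Eya1*cKO, 0.672 of the control ratio and again without overlap. The ratio of *Fat4* to *Dchs1* was 0.669 and 0.698 in the controls and 1.002 and 0.697 in *Eya1*cKO, where 1 library was higher and the other within the range of the controls. With 2 libraries against 2, a two-sided exact permutation test cannot go below *P* = 0.333, which it gave for the first 2 ratios, and it gave 0.667 for the third, so these differences cannot reach significance by this test.

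**Figure D3:**
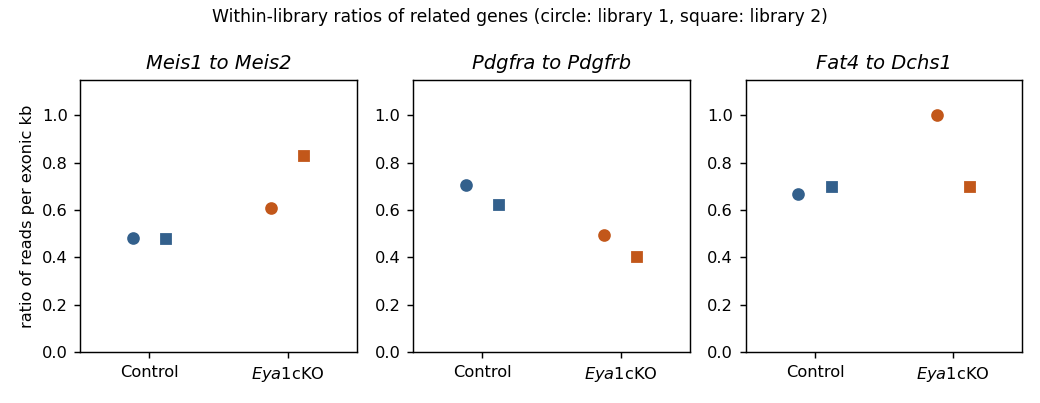
Ratio of reads per exonic kilobase of 3 gene pairs in each library (linear axis from 0; circle: library 1, square: library 2). The *Meis1* to *Meis2* ratio is higher in both *Eya1*cKO libraries, the *Pdgfra* to *Pdgfrb* ratio is lower in both, and the *Fat4* to *Dchs1* ratio is 1.002 in *Eya1*cKO 1 and 0.697 in *Eya1*cKO 2.

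Ligands, partners and effectors of these genes were taken from lists, 1 for each family below, chosen with earlier results of these data known. Their counts are a description and not an independent test. The counts are to be read against the 4.41% lower and 5.15% higher among all 19041 genes tested, of which 2772 were lower and 2707 higher at an unadjusted *P* under 0.05 in edgeR and 1211 lower and 1523 higher in DESeq2's test. Leaving out either control lowered the counts of all lists with calls, and those over all genes, in edgeR. The spread then came from the *Eya1*cKO pair. Leaving out *Eya1*cKO 1 or 2 raised most of the list counts and those over all genes, the spread then coming from the controls. The counts of these fits are not to be read against the shares above. Of the 4 PDGF ligand genes, 1 fell and none rose in edgeR's or DESeq2's test, and none was higher at an unadjusted *P* under 0.05 in edgeR. The gene that fell was *Pdgfc*, a ligand of Pdgfra, from 83.9 to 24.7 CPM (2966 and 3114 reads in the controls and 804 and 243 in *Eya1*cKO, log2 fold change -1.70, standard error 0.30, adjusted *P* = 0.017 in edgeR). With the legacy method 0 of the 4 fell. *Pdgfa* had a log2 fold change of -0.69 (adjusted *P* = 0.13). *Pdgfb* and *Pdgfd*, whose products bind Pdgfrb though not all of them Pdgfrb alone, had overlapping libraries. Their log2 fold changes were 0.92 (adjusted *P* = 0.25) and -0.19 (adjusted *P* = 0.81).

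Of 9 further TALE factors, which include the Pbx partners of Meis proteins, 1 fell in edgeR's test and none rose. It was *Tgif1*, a repressor of TGF-beta signalling, with -0.66 ± 0.15 (SE, adjusted *P* = 0.038 in edgeR), and 0 fell with the legacy method or when no genes were filtered. *Pbx4* had 78 and 127 reads in the controls and 7 and 1 in *Eya1*cKO, without passing (-3.80, adjusted *P* = 0.085). None of the 9 was higher at an unadjusted *P* under 0.05 in edgeR or in DESeq2's test, by which 3 fell. Of the 11 netrin family and netrin receptor genes tested, 1 rose and none fell in edgeR, where 3 were higher and 1 was lower at an unadjusted *P* under 0.05 and DESeq2's test called 1 lower. The gene that rose was *Ntng2*, a membrane-bound netrin relative, with 417 and 406 reads in the controls and 1452 and 1788 in *Eya1*cKO (log2 fold change 2.84, standard error 0.30, adjusted *P* = 0.0031 in edgeR). The receptors *Neo1* and *Unc5c* were abundant and had log2 fold changes of 0.11 and -0.13 (adjusted *P* = 0.43 and 0.40). *Dcc*, another receptor, had 91 and 137 reads in the controls and 0 and 2 in *Eya1*cKO, without passing (adjusted *P* = 0.078). Of 6 forkhead genes of mesenchyme, 4 were tested and none passed in edgeR, where *Foxf1* was higher at an unadjusted *P* under 0.05 (2.62, adjusted *P* = 0.061) and DESeq2's test called 1 higher. *Foxd2*, a close relative of *Foxd1*, had a log2 fold change of -0.37 (adjusted *P* = 0.25).

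Of the 26 further genes of Fat-Dachsous and Hippo signalling, 4 fell and 1 rose (4.41% and 5.15% over all genes), with a median log2 fold change of -0.07. *Tead2*, a DNA-binding partner of the coactivator Yap1, fell by 0.42 on the log2 scale (adjusted *P* = 0.016 in edgeR), the Hippo regulator *Nf2* by 0.66 (adjusted *P* = 0.020) and the Fat family gene *Fat3* by 1.22 (adjusted *P* = 0.020). The fourth gene that fell was the planar cell polarity gene *Vangl2* (-0.57, adjusted *P* = 0.044), named after its values were seen. *Ccn1*, a widely used transcriptional readout of Yap, rose from 702 to 1001 CPM (log2 fold change 0.51, standard error 0.06, adjusted *P* = 0.0035 in edgeR). Other genes used as Yap readouts, named after their values were seen, did not pass, with log2 fold changes of 0.42 for *Ccn2* (adjusted *P* = 0.31), 0.0031 for *Amotl2* (0.99) and 1.28 for *Ankrd1* (0.48), the last with 17 and 38 reads in the controls and 9 and 65 in *Eya1*cKO. In all, 21 of the 26 genes did not pass.

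Of 24 further genes of stroma and interstitium, 10 rose and 4 fell, with a median log2 fold change of 0.36, and 2 fell with library totals alone, with the legacy method or when no genes were filtered. The most certain rises were those of the matrix genes *Col1a2* (603 to 1955 CPM), *Col3a1* (962 to 2417 CPM) and *Postn* (81.3 to 308 CPM), with log2 fold changes of 1.70, 1.33 and 1.92 (adjusted *P* = 5.5e-05, 5.5e-05 and 2.0e-04 in edgeR). Those that fell were *Aldh1a2*, which makes retinoic acid (-0.88, adjusted *P* = 0.0012), the Hedgehog co-receptor *Gas1* (-0.82, adjusted *P* = 0.0035), the Hedgehog effector *Gli3* (-0.63, adjusted *P* = 0.048) and the matrix gene *Tnc* (-0.74, adjusted *P* = 0.049), the last named after its values were seen. *Fgf7*, also named after its values were seen, had 22 and 30 reads in the controls and 0 in both *Eya1*cKO libraries and did not pass (adjusted *P* = 0.11), and the list median is the same with this gene at the limit that 3 reads per library allow. Collagens and *Postn* are also made by other mesenchymal cells, so the list is not particular to the renal stroma.

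Of 17 genes of ureteric and mural mesenchyme, the tissue that *Tbx18* marks and its smooth muscle and pericyte neighbours, 6 rose and 1 fell, with a median log2 fold change of 0.56, and 3 rose without the low-count filter and 4 with the legacy method. *Mcam* (0.84, adjusted *P* = 0.0078 in edgeR) and *Cspg4* (0.81, adjusted *P* = 0.0091), which mark mural cells and are not confined to them, rose, and so did the Hedgehog target *Hhip* (200 and 113 reads in the controls, 466 and 826 in *Eya1*cKO, log2 fold change 2.91, adjusted *P* = 0.023). The smooth muscle genes of the list, named after their values were seen, did not move as one. *Acta2* rose (1.09, adjusted *P* = 0.030 in edgeR), whereas the *Eya1*cKO libraries were below the controls, without passing, for *Myh11* (199 and 150 reads against 74 and 43, -0.73, adjusted *P* = 0.49) and *Tagln* (36 and 23 reads against 11 and 5, -1.02, adjusted *P* = 0.47). For *Myocd* the *Eya1*cKO libraries were above the controls, also without passing (4.03 and 3.89 CPM against 5.79 and 6.37, 0.61, adjusted *P* = 0.48 in edgeR). The only gene of the list that fell was *Sox9* (-1.10, adjusted *P* = 0.013). *Sox9* is also expressed in ureteric bud tips and other epithelia.

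**Figure D4:**
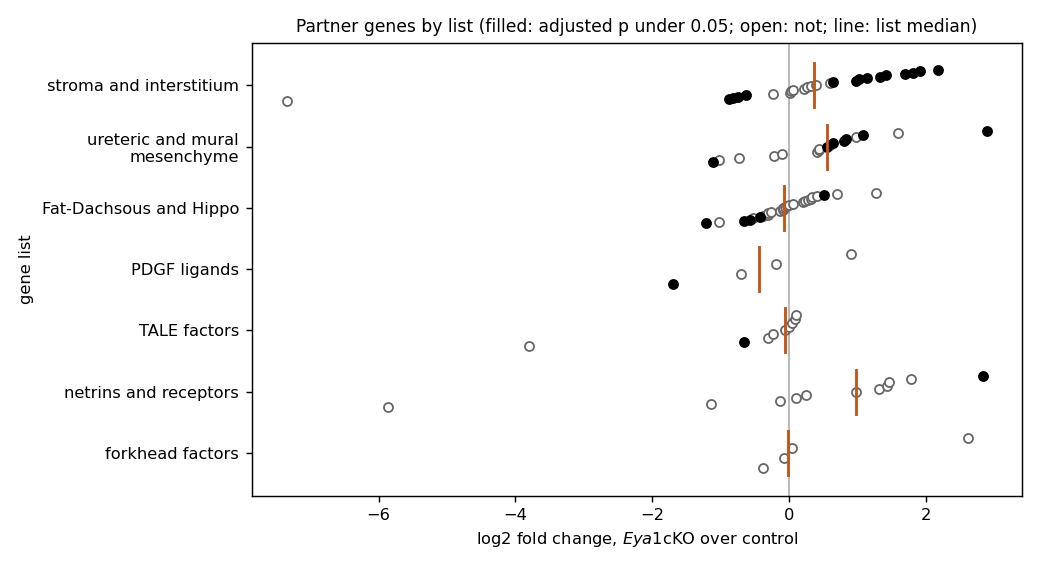
Log2 fold change, *Eya1*cKO over control, of the tested genes in 7 lists of ligands, partners and further mesenchymal genes. Filled points had an adjusted *P* under 0.05, open points did not, and the line is the list median, from -0.44 for the PDGF ligands to 0.98 for netrins and receptors, against 0.02 over all genes tested; the open point near -7 is *Fgf7*, whose fitted value depends on the prior count.

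The 3 genes whose levels over the 4 libraries were most like those of *Foxd1*, by the distance between centred log2 CPM and among 10400 genes of at least 10 CPM, were *Bcam*, *Pip4p1* and *Unc13b*, at distances of 0.0091, 0.013 and 0.018. *Bcam*, which encodes a laminin-binding adhesion molecule, had 213 and 204 CPM in the controls against 267 and 325 in *Eya1*cKO.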

How the data were processed

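Bead-purified mRNA of 5000 sorted cells per library was made into random-primed strand-specific libraries and sequenced from one end. The labels name mm10, HISAT2, HTSeq and DESeq2, and the methods name Ensembl release 90. The deposited values are raw read counts per gene, made by the authors without normalization; versions, trimming and the strand setting are not given in the sources used here. Read rows that name no gene (no feature, not aligned, ambiguous, not unique) stayed out of totals and tests. The methods and the labels differ in the number of kidneys and females (6 kidneys per genotype from 4 females in the labels). Suspensions were combined before sorting and the libraries of a genotype were sorted at the same time, so *P* values measure only the spread between these libraries, which may be technical.

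The test was run in edgeR 4.0.16 under R 4.3.3 (filterByExpr with a minimum count of 10, TMM scaling, glmQLFit and glmQLFTest with legacy = FALSE, Benjamini-Hochberg adjustment across all genes). The SE was taken as the size of the log2 fold change divided by the root of the F statistic, and intervals use the fit's degrees of freedom. CPM are counts over TMM-scaled totals; 3 counts correspond to 0.0800 to 0.171 CPM in a library. DESeq2 1.42.0 was an alternative, with other scalings, filters, the legacy method, the replicate block and each library left out. Symbols matched 52403 of 52636 identifiers. Coordinates and exonic lengths are from GENCODE M21 (GRCm38). The named genes were all 9 members and *Eya1*, any gene of partner lists of up to 12 genes and of the marker lists, the 3 of smallest *P* in each direction in longer lists, and the 3 genes most like *Foxd1*. Other genes of the longer lists were named after their values were seen. The members and lists were chosen with earlier results of these data known. Of the list genes, *Ntn3* was not matched.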

Additional observations from a re-analysis of the deposited data

How the results depend on the processing

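The numbers of stroma regulators called lower and higher (3 and 2) were 2 and 1 without the low-count filter, 2 and 1 with the legacy method, 2 and 1 with the replicate block, 2 and 2 with library totals alone, and 3 and 2 with DESeq2's size factors, with at least 10 counts in every library and with DESeq2's Wald test. With each library left out they ran from 0 to 5 and from 0 to 3. Over all genes (839 lower and 981 higher) the counts were 507 and 548 without the filter, 515 and 581 with the legacy method, 263 and 358 with the replicate block and 1211 and 1523 with DESeq2's Wald test, and from 7 to 3482 and from 15 to 4443 with each library left out. The low ends are from leaving out a control, when the spread is taken from the *Eya1*cKO pair, and the high ends from leaving out an *Eya1*cKO library, when it is taken from the controls. A lone library is then assumed to vary like the other group. *Pdgfrb*, *Dchs1*, *Meis2* and *Eya1* stayed called in all 7 alternatives that kept the 4 libraries. The log2 fold change of *Meis1*, near 0, turned positive with DESeq2's size factors (0.0078), library totals (0.033), DESeq2's Wald test (0.013) and the legacy method (0.0025), and without control 1 (0.0074) or *Eya1*cKO 1 (0.081), against -0.11 without *Eya1*cKO 2; no other gene of the 9 changed sign. The replicate numbers do not pair the libraries (the correlation of the deviations of same-numbered libraries was 0.006), and with the replicate block *Foxd1* had an adjusted *P* of 0.099 and *Tbx18* of 0.10 in edgeR. In that fit none of the TALE factors, PDGF ligands, ureteric and mural genes or Fat-Dachsous and Hippo genes fell, 2 of the stroma and interstitium genes fell and 1 of the ureteric and mural genes rose. The 4 stroma and interstitium genes that fell were also 2 with library totals, without the filter and with the legacy method, and the 6 ureteric and mural genes that rose were 3 without the filter. The PDGF ligands that fell were 2 without *Eya1*cKO 1, and without *Eya1*cKO 2 1 PDGF ligand rose and 2 forkhead genes and 2 ureteric and mural genes fell. Without either of these libraries 1 forkhead gene rose. The TALE genes that fell were 0 without the filter and with the legacy method, which also left 0 PDGF ligands, and 2 with at least 10 counts in every library, where 1 forkhead gene rose. In raw counts, with no division by length, the ratio of *Meis1* to *Meis2* was 0.419 in the controls and 0.628 in *Eya1*cKO, that of *Pdgfra* to *Pdgfrb* 1.22 and 0.818, and that of *Fat4* to *Dchs1* 1.06 and 1.32. The differences of *Pdgfra*, *Fat4* and *Ntn1* were not detectable at the threshold with the 4 libraries at this spread, and 2 libraries per genotype limit every call.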
